A study of Homo sapiens with 21 samples.

Results

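The genes described here were 39 genes of glycolysis and of the cellular response to low oxygen, taken by symbol from the 28008 genes counted in both RNA-seq tables of the series. They comprised 15 enzymes from hexokinase to pyruvate kinase, 6 genes of lactate metabolism and of glucose and lactate transport, 3 kinases that set glycolytic flux, 5 hypoxia-inducible factor (HIF) subunits and oxygen sensors, and 10 known HIF targets. RNA had been sequenced from 21 libraries of human leukaemia cell lines, in 7 groups of 3. In batch 1, OCI-AML3 cells (an acute myeloid leukaemia line) labelled StAMP resistant BioRep1, genotype Res and treatment StAMP (here resistant 1), stood beside OCI-AML3 cells of genotype WT given the solvent DMSO (vehicle), K562 cells (an erythroid-like chronic myeloid leukaemia line, K562 parental) and further OCI-AML3 cells (OCI-AML3 parental), the parental groups of genotype WT with treatment given as N/A. StAMP is a stapled peptide under study for killing cancer cells. In batch 2, cells labelled BioRep1 (resistant 1) and BioRep2 (resistant 2), again of genotype Res and treatment StAMP, stood beside WT cells given DMSO. The names resistant 1 and resistant 2 stand below for these labels only. The sources used here do not say whether a BioRep is a clone, and the dose of peptide, the length of selection and the culture conditions were not given there.

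Glycolysis splits glucose into pyruvate, and pyruvate either enters mitochondria or is reduced to lactate and exported. Several steps are carried by isoenzymes encoded by separate genes, so cell types can differ in which of them they use. In low oxygen the HIF alpha subunits escape hydroxylation by the EGLN enzymes and recognition by VHL, pair with ARNT, and switch on many glycolytic genes together with targets such as BNIP3, VEGFA and CA9, at DNA sites built on a short ACGTG or GCGTG core.

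The libraries held 14066821 to 21091646 counts in batch 1 and 30719771 to 51262668 in batch 2. Levels are given in CPM, counts scaled to a common library size with trimmed-mean factors, done separately for each batch, so a level in batch 1 and a level in batch 2 lie on separately set scales. The 9 libraries labelled resistant went against their OCI-AML3 label. Across 10784 expressed genes their log2 CPM correlated at 0.978 to 0.980 with K562 parental and at 0.511 to 0.516 with OCI-AML3 parental in batch 1, as a description of profiles. The resistant 1 libraries of batch 2 reached 0.910 to 0.940 with K562 parental and the resistant 2 libraries 0.901 to 0.931. Of 12 erythroid and K562 markers, 12 were above 1 CPM in every library labelled resistant and in K562 parental, and 3 in every vehicle and OCI-AML3 parental library. Their summed level was 3772 to 3932 CPM in the libraries labelled resistant 1 and 29.6 to 31.9 CPM in vehicle of batch 1, and 1594 to 1729 CPM in resistant 1, 1044 to 1545 CPM in the libraries labelled resistant 2 and 13.7 to 18.7 CPM in vehicle of batch 2. The 12 myeloid markers summed to 87.1 to 89.3 CPM in resistant 1 and 2021 to 2058 CPM in vehicle of batch 1, and to 176 to 206 CPM in resistant 1, 132 to 144 CPM in resistant 2 and 1889 to 2049 CPM in vehicle of batch 2. Of these 12, 4 were above 1 CPM in every library labelled resistant, 11 in vehicle of batch 1 and 9 or 10 in vehicle of batch 2. Against vehicle, 10 of the 11 tested myeloid markers were called lower and 1 higher in each of the 3 comparisons. Among the lower ones, HOXA9 and HOXA10, homeobox genes on in OCI-AML3, had 0 counts in all 9 libraries labelled resistant. The erythroid genes HEMGN, RHAG and HBZ had 0 counts in every vehicle and OCI-AML3 parental library. Another list of 4 fibroblast and epithelial markers, kept for cells of other types, summed to 231 to 235 CPM in resistant 1 and 0.727 to 1.33 CPM in vehicle of batch 1, 260 to 312 CPM in resistant 1, 192 to 229 CPM in resistant 2 and 0.310 to 0.495 CPM in vehicle of batch 2, and 339 to 347 CPM in K562 parental and 3.93 to 5.52 CPM in OCI-AML3 parental. Of this list, KRT18 had 8939 counts in resistant 1 and 8 in vehicle of batch 1, EPCAM had 3383 counts in resistant 1 and 0 in vehicle, and K562 parental had 11186 and 4558 counts of these genes. The 4 lymphoid markers summed to under 4 CPM in every library. Each comparison of libraries labelled resistant with vehicle below therefore moved together with these markers, and a difference between conditions and a difference between cell lines cannot be told apart in it. In bulk RNA, fewer cells of a type and less RNA per cell cannot be told apart either.

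The upstream windows of 6 members are printed here as examples, because the HIF core is the sequence feature the members could share. The choice did not follow the rule for naming members used below, and HK1, SLC16A3 and GAPDH, which meet that rule, are not printed. The printed windows therefore do not stand for all member windows, whose shares follow the sequences. Each window is the 250 bases before a RefSeq transcription start on GRCh38.p14, 5′ to 3′ on the gene's strand, in lower case with every ACGTG or GCGTG core, read on both strands, in capitals. BNIP3 (chr10:131981924-131982173, minus strand) held 6 cores, of which a pair overlapped in 1 CACGTG palindrome. LDHA (chr11:18394313-18394562, plus strand) held 5 cores, including 2 CACGTG palindromes, and PGK1 (chrX:78103998-78104247, plus strand) held 3. ENO2 (chr12:6914330-6914579, plus strand) and PFKFB4 (chr3:48556804-48557053, minus strand) held 1 each. EGLN3 (chr14:33951075-33951324, minus strand) held 0, which says only that these letters are not in this window.
BNIP3: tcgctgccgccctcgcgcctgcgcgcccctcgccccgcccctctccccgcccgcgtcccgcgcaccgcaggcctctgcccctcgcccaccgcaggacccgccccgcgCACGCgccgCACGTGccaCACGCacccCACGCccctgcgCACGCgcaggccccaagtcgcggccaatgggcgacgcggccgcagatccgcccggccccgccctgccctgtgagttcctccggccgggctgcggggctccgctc
LDHA: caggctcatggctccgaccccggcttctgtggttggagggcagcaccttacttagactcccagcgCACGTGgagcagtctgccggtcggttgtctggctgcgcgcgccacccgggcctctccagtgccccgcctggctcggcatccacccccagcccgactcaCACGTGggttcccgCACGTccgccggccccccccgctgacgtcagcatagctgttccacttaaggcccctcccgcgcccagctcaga
PGK1: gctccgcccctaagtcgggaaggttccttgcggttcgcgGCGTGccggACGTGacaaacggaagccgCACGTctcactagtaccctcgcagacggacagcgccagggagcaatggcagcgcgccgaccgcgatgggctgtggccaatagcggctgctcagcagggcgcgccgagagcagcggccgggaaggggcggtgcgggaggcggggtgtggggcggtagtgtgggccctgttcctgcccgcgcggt
ENO2: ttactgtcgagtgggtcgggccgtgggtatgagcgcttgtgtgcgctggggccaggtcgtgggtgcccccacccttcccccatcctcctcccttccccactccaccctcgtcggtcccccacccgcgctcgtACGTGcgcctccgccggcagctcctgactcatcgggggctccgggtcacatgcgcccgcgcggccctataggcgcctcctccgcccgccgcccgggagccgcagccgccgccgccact
PFKFB4: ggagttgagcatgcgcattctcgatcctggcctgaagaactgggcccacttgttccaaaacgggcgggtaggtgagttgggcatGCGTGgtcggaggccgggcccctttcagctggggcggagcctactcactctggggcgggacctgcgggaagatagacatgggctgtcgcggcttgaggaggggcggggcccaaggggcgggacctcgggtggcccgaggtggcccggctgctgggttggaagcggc
EGLN3: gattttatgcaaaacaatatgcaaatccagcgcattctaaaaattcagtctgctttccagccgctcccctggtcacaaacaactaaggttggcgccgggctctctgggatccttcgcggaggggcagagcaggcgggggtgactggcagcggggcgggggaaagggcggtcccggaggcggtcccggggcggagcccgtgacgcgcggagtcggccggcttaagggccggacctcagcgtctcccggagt
In all, 61 windows of 33 members were at hand, and 36 of them (59%) held an ACGTG or GCGTG core, beside 43.2% of 35116 windows of all genes. ACGTG alone was in 36.1% of member windows and 18.5% of all windows, GCGTG alone in 32.8% and 32.2%, and the palindrome CACGTG, which contains ACGTG on both strands, in 13.1% and 6.34%. A match is a description of the letters and not a bound site. These windows are taken up again beside the transcript levels below.

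The comparison of the libraries labelled resistant with vehicle asked which transcripts differed between cells labelled peptide-resistant and solvent-treated cells. A gene was called when its edgeR quasi-likelihood p, adjusted over all genes tested by Benjamini-Hochberg, was under 0.05, and 37 of the 39 members passed the filter on low counts. CA9 and ADM did not. Nothing in the labels says that the 3 libraries of a group came from separate cultures, so each p-value reflects variation among these particular libraries, which may be technical. In the libraries labelled resistant 1 against vehicle of batch 1, 16 members rose and 17 fell, beside 86% of 14505 genes called in either direction (44% higher, 42.1% lower). In resistant 1 against vehicle of batch 2, 16 rose and 19 fell, beside 75.7% of 15218 genes called (39.9% higher, 35.8% lower). In the libraries labelled resistant 2 against vehicle, which shares those vehicle libraries, 15 rose and 20 fell, beside 76.1% called (40.2% higher, 35.9% lower). The share of members called was 89.2% in batch 1, near that of all genes, and 94.6% for each resistant group in batch 2, above that of all genes. No test was run on these shares. The median log2 fold change of the members was 0.05 in batch 1, −0.28 for resistant 1 in batch 2 and −0.43 for resistant 2, beside 0.02, 0.07 and 0.07 over all genes tested. Without the scaling factors the values of all genes shifted by a median of 0.19 for resistant 1 and 0.28 for resistant 2 of batch 2, and the calls then split into 17 higher and 15 lower members for resistant 1 and 15 higher and 16 lower for resistant 2. Over all genes that setting gave 7413 higher and 4261 lower calls for resistant 2, beside 6124 higher and 5462 lower with the factors. In size, 18 members in batch 1, 19 for resistant 1 in batch 2 and 19 for resistant 2 were called with an absolute log2 fold change of at least 1, beside 44.5%, 47.9% and 48.2% of all genes tested, close to the members' shares. By the rule for naming members, 10 averaged at least 10 CPM in the higher group and had such a fold with 1 sign in all 3 comparisons: HK1, ENO2, PFKFB4 and P4HA2 higher and GAPDH, PGAM1, PKM, SLC16A3, PFKFB3 and NDRG1 lower. The share of all genes that meet this rule was not counted. The rule therefore serves to choose members for naming, and does not set them apart from other genes. Another 4 (GPI, ALDOA, ENO1 and EPAS1) were called with opposite signs in at least 2 of the 3, as were 4.82% of 14179 genes.

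**Figure D1:**
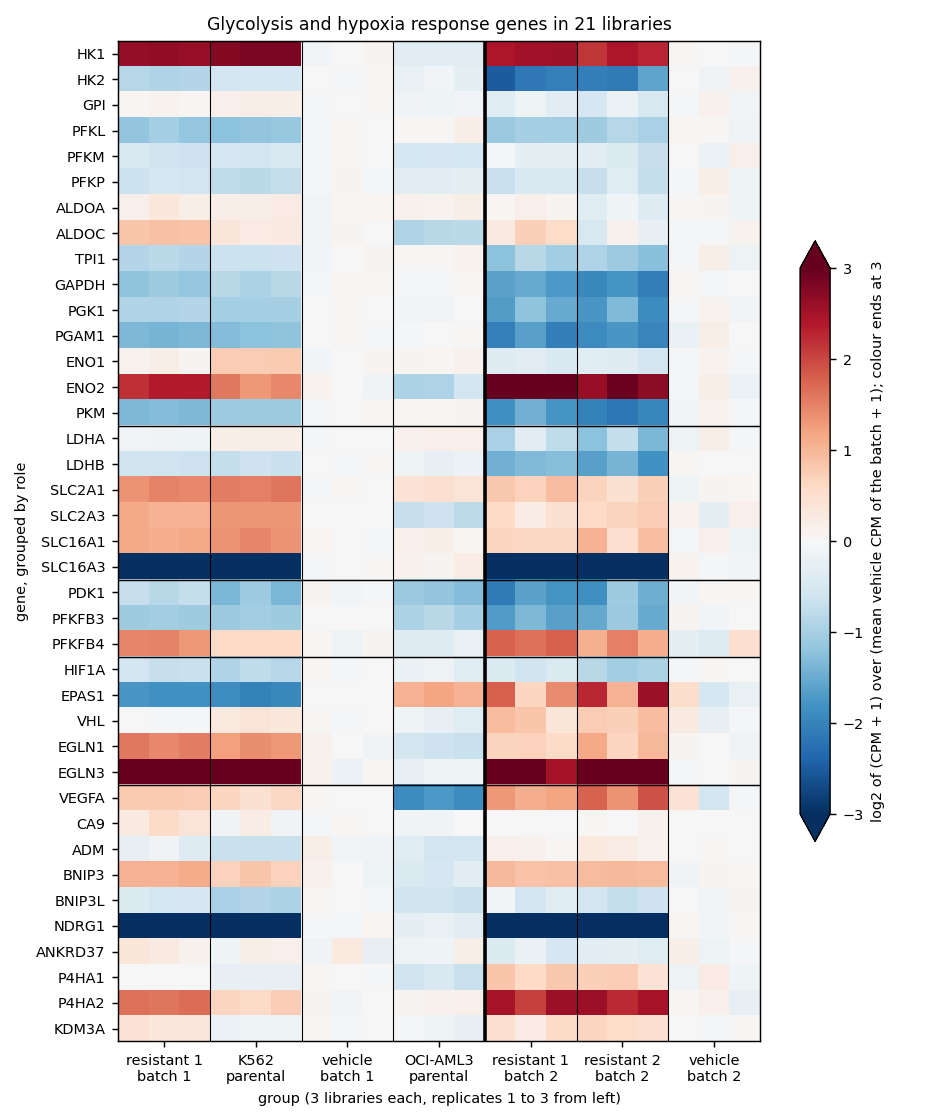
Levels of the 39 members (one line each, by role) in the 21 libraries, as log2 of CPM plus 1 over the mean vehicle CPM of the same batch plus 1, with colour ending at 3 on either side. The libraries labelled resistant and the K562 parental libraries show the same strong colours, such as SLC16A3 and NDRG1 low and HK1, ENO2 and EGLN3 high. OCI-AML3 parental libraries are pale for most members. Vehicle libraries are pale by construction, because their own mean sets the scale.

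At the entry to the pathway the hexokinases moved in opposite directions. HK1 (chr10:69269984-69401884), the hexokinase of most tissues, had 909.9, 923 and 901 CPM in the libraries labelled resistant 1 and 139, 145 and 154 CPM in vehicle of batch 1, and 783, 827 and 849 CPM in resistant 1, 639.6, 782 and 707 CPM in the libraries labelled resistant 2 and 150.0, 144 and 138 CPM in vehicle of batch 2. Every library labelled resistant was far above every vehicle library. The log2 fold change was 2.72 ± 0.05 (SE) in batch 1, a 6.58-fold difference (edgeR adjusted p = 5.92e-27), and 2.51 ± 0.11 and 2.30 ± 0.11 for resistant 1 and resistant 2 in batch 2 (adjusted p = 3.97e-11 and 9.69e-11). HK2, the inducible hexokinase and a known HIF target, had 119, 116 and 117 CPM in resistant 1 and 219.6, 208 and 223 CPM in vehicle of batch 1, and 49.1, 62.4 and 67.2 CPM in resistant 1, 66.0, 63.7 and 93.3 CPM in resistant 2 and 278, 259 and 304 CPM in vehicle of batch 2. It was lower in all of them, with log2 fold changes of −0.81, −2.24 and −1.92 (edgeR adjusted p = 5.51e-14, 8.05e-09 and 4.06e-08). GPI, the isomerase of the next step, had 431, 445 and 429 CPM in resistant 1 and 403, 412 and 427 CPM in vehicle of batch 1, and 251, 292 and 256 CPM in resistant 1, 227, 286 and 232 CPM in resistant 2 and 314, 351 and 303 CPM in vehicle of batch 2. Its log2 fold change of 0.15 in batch 1 was called higher, and those of −0.28 and −0.38 in batch 2 were called lower. The call for resistant 1 in batch 2 was lost without replicate 1, 2 or 3 of vehicle (−0.28, −0.20 and −0.31), without replicate 1 or 3 of resistant 1 (−0.24 and −0.23) and without replicate 1 of resistant 2 (−0.28). That for resistant 2 was lost without replicate 2 of vehicle (−0.30), and with library totals both were lost (−0.09 and −0.10). With no low-count filter the call for resistant 1 was lost as well (−0.27).

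The phosphofructokinases PFKL, PFKM and PFKP, which commit sugar to glycolysis, were lower or not called. PFKL, the liver form, averaged 106 ± 6.32 CPM in the libraries labelled resistant 1 and 231 ± 9.66 CPM in vehicle of batch 1 (mean ± SD, n = 3 each). It fell in all 3 comparisons, and its log2 fold changes were −1.05, −1.05 and −0.97 (edgeR adjusted p = 5.74e-16, 3.22e-07 and 7.45e-07). PFKP, the platelet form, had log2 fold changes of −0.51, −0.53 and −0.58, all called. PFKM was at −0.50 in batch 1 and −0.48 for the libraries labelled resistant 2, both called lower, and at −0.21 for resistant 1 in batch 2, not called (adjusted p = 0.173). With library totals the value for resistant 2 was −0.20 and no longer called. The aldolases split the phosphorylated hexose into trioses. ALDOA, the form of most tissues, had 1072, 1203 and 1094 CPM in resistant 1 and 913, 991 and 1005 CPM in vehicle of batch 1 (log2 fold change 0.29, called higher), and 758, 807 and 767 CPM in resistant 1, 568, 664 and 556 CPM in resistant 2 and 751, 767 and 673 CPM in vehicle of batch 2. The resistant 2 value of −0.29 was called lower, but not without replicate 1 or 2 of vehicle (−0.26 and −0.24), without replicate 1 or 3 of resistant 2 (−0.26 and −0.24) or with library totals (−0.01). Nor was it called with only the 2 compared groups in the fit (−0.27). ALDOC, known best from brain, had 74.9, 77.2 and 76.1 CPM in resistant 1 and 38.7, 43.8 and 41.4 CPM in vehicle of batch 1. Its log2 fold change was 0.95 ± 0.06 there and 0.54 ± 0.16 for resistant 1 in batch 2, both called higher, and −0.18 ± 0.16 for resistant 2, not called (adjusted p = 0.32), though without replicate 2 of resistant 2 it was −0.38 and called lower.

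From triose phosphate to pyruvate, 5 abundant enzymes were lower in all 3 comparisons: TPI1, GAPDH, PGK1, PGAM1 and PKM. GAPDH (chr12:6534512-6538374), which oxidises glyceraldehyde phosphate, had 1567, 1718 and 1608 CPM in the libraries labelled resistant 1 and 3448, 3665 and 3679 CPM in vehicle of batch 1, and 1196, 1272 and 1101 CPM in resistant 1, 956, 1061 and 865 CPM in the libraries labelled resistant 2 and 3723, 3526 and 3687 CPM in vehicle of batch 2. No library labelled resistant reached a vehicle library of its batch. The log2 fold changes were −1.07 ± 0.04, −1.62 ± 0.12 and −1.92 ± 0.12 (edgeR adjusted p = 8.32e-19, 7.93e-09 and 1.15e-09). PGAM1, the mutase that moves the phosphate group along the triose, had 169.6, 164 and 168 CPM in resistant 1 and 436, 439.7 and 419 CPM in vehicle of batch 1, with log2 fold changes of −1.29, −1.91 and −1.89 (edgeR adjusted p = 4.01e-20, 1.25e-08 and 1.39e-08). PKM, the pyruvate kinase of most tissues, had 448, 461 and 443 CPM in resistant 1 and 1115, 1121 and 1180.3 CPM in vehicle of batch 1, and 254, 333 and 266 CPM in resistant 1, 223, 201 and 233 CPM in resistant 2 and 867, 976 and 890.4 CPM in vehicle of batch 2. Again the groups did not overlap, and the log2 fold changes were −1.26 ± 0.04, −1.68 ± 0.12 and −2.06 ± 0.13 (edgeR adjusted p = 1.31e-20, 1.23e-08 and 1.32e-09). TPI1, the triose phosphate isomerase, had log2 fold changes of −0.78, −1.03 and −1.09. PGK1, which makes the pathway's first ATP and whose window held 3 HIF cores, had −0.82, −1.45 and −1.64. Reads of GAPDH, PGAM1, PKM, TPI1 and ENO1 could be shared with pseudogenes named after them (65 for GAPDH), so their levels carry that uncertainty.

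The enolases, which make phosphoenolpyruvate, split. ENO2 (chr12:6913745-6923698), the gamma form known from neurons and a HIF target, had 28.2, 32.6 and 32.4 CPM in the libraries labelled resistant 1 and 5.87, 5.40 and 4.99 CPM in vehicle of batch 1, and 31.0, 23.9 and 30.5 CPM in resistant 1, 16.8, 21.9 and 17.9 CPM in the libraries labelled resistant 2 and 1.87, 2.31 and 1.58 CPM in vehicle of batch 2. All libraries labelled resistant lay above all vehicle libraries of their batch. The log2 fold changes of 2.58 ± 0.11, 3.88 ± 0.19 and 3.29 ± 0.19 (edgeR adjusted p = 1.84e-18, 1.05e-10 and 5.77e-10) were the highest of the enzymes from hexokinase to pyruvate kinase in batch 2, and in batch 1 that of HK1 alone was higher. ENO1, the ubiquitous alpha form, had 1523, 1603 and 1508 CPM in resistant 1 and 1339, 1414 and 1497 CPM in vehicle of batch 1 (log2 fold change 0.20, called higher). In batch 2 it had 1184, 1249.6 and 1121 CPM in resistant 1, 1206, 1186 and 1058 CPM in resistant 2 and 1499.8, 1671 and 1485 CPM in vehicle (−0.39 and −0.43, both called lower). With library totals the values of batch 2 were −0.20 and −0.15 and neither was called.

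Among the genes of lactate and transport, the monocarboxylate transporter SLC16A3 had the largest fall. SLC16A3 (chr17:82217934-82261129), the lactate exporter MCT4 and a HIF target, had 2.37, 2.90 and 1.28 CPM in the libraries labelled resistant 1 and 170.4, 174 and 180.0 CPM in vehicle of batch 1, and 1.63, 1.92 and 1.37 CPM in resistant 1, 1.22, 0.629 and 1.64 CPM in the libraries labelled resistant 2 and 103, 93.2 and 89.4 CPM in vehicle of batch 2. It was under 3 CPM in every library labelled resistant. The log2 fold changes were −6.20 ± 0.11, −5.84 ± 0.24 and −6.34 ± 0.25 (edgeR adjusted p = 7.05e-26, 1.88e-11 and 1.01e-11). SLC16A1, the transporter MCT1, which carries lactate both ways, was higher: 307, 299 and 308 CPM in resistant 1 and 145, 139 and 136 CPM in vehicle of batch 1, with log2 fold changes of 1.20, 0.63 and 0.84 (edgeR adjusted p = 1.59e-18, 0.000693 and 5.64e-05). The glucose importers were higher as well. SLC2A1 (GLUT1), the basal importer, had 152, 168 and 161 CPM in resistant 1 and 56.7, 60.5 and 59.4 CPM in vehicle of batch 1, and its log2 fold changes were 1.52, 0.82 and 0.62. SLC2A3 (GLUT3), a high-affinity importer, had 1.16, 0.43 and 0.68, all called higher, though reads could be shared with its near-identical paralogue SLC2A14. Of the lactate dehydrogenase subunits, LDHB, which favours pyruvate, averaged 879 ± 9.77 CPM in resistant 1 and 1340.2 ± 32.3 CPM in vehicle of batch 1 and fell in all 3 (−0.53, −1.35 and −1.60). LDHA, which favours lactate and whose window held 5 HIF cores, averaged 975 ± 17.6 CPM in resistant 1 and 1047 ± 21.6 CPM in vehicle of batch 1 (−0.03, not called, adjusted p = 0.498), and was lower in batch 2 (−0.66 and −1.07).

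The kinases that set flux also split within a pair. PFKFB3 and PFKFB4 both make and break down the fructose bisphosphate that activates phosphofructokinase. PFKFB4 (chr3:48517684-48562015) had 45.0, 46.2 and 40.5 CPM in the libraries labelled resistant 1 and 16.5, 14.1 and 16.6 CPM in vehicle of batch 1, and 21.3, 19.8 and 21.7 CPM in resistant 1, 12.7, 17.9 and 12.9 CPM in the libraries labelled resistant 2 and 4.35, 4.03 and 8.38 CPM in vehicle of batch 2. It was a gene of low level in vehicle and higher in every library labelled resistant, with log2 fold changes of 1.57 ± 0.08, 1.92 ± 0.24 and 1.39 ± 0.24 (edgeR adjusted p = 6.12e-16, 5.14e-06 and 0.000108). PFKFB3 had 29.3, 30.2 and 29.5 CPM in resistant 1 and 62.6, 62.5 and 63.9 CPM in vehicle of batch 1, and 20.3, 26.1 and 21.3 CPM in resistant 1, 22.6, 30.6 and 23.2 CPM in resistant 2 and 71.4, 64.2 and 67.8 CPM in vehicle of batch 2. It was lower without overlap, by log2 fold changes of −1.01 ± 0.06, −1.59 ± 0.14 and −1.41 ± 0.14 (edgeR adjusted p = 2.22e-14, 1.24e-07 and 4.07e-07). PDK1, the kinase that inhibits pyruvate dehydrogenase and so keeps pyruvate out of mitochondria, had 44.8, 41.1 and 44.0 CPM in resistant 1 and 78.5, 69.8 and 72.3 CPM in vehicle of batch 1, and 26.4, 38.3 and 33.8 CPM in resistant 1, 32.5, 56.4 and 42.0 CPM in resistant 2 and 113, 122 and 121 CPM in vehicle of batch 2. It fell in all 3, by log2 fold changes of −0.69, −1.86 and −1.44.

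Of the HIF system itself, the oxygen sensor EGLN3 had the largest rise of all members. EGLN3 (chr14:33924227-34462774), a prolyl hydroxylase that marks HIF alpha for destruction and is a HIF target itself, had 23.2, 25.2 and 24.9 CPM in the libraries labelled resistant 1 and 0.280, 0.0491 and 0.205 CPM in vehicle of batch 1, and 8.54, 8.47 and 5.05 CPM in resistant 1, 15.8, 9.19 and 8.41 CPM in the libraries labelled resistant 2 and 0.0215, 0.0530 and 0.124 CPM in vehicle of batch 2. The vehicle values rested on 5, 1 and 3 counts in batch 1 and 1, 2 and 4 counts in batch 2. The log2 fold changes were 7.17 ± 0.21, 6.86 ± 0.47 and 7.45 ± 0.47 (edgeR adjusted p = 7.3e-22, 5.66e-09 and 1.88e-09). EGLN1, the main prolyl hydroxylase of most cells, was also higher, at 89.8, 81.8 and 87.6 CPM in resistant 1 and 32.2, 29.1 and 27.1 CPM in vehicle of batch 1, with log2 fold changes of 1.62, 0.65 and 0.95. HIF1A, the alpha subunit present in most cells, averaged 69.4 ± 3.05 CPM in resistant 1 and 109 ± 4.41 CPM in vehicle of batch 1 and was lower in all 3 (−0.57, −0.48 and −0.95). EPAS1 (chr2:46293667-46386697), the other main alpha subunit, had 14.9, 14.2 and 14.1 CPM in resistant 1 and 52.0, 51.6 and 53.0 CPM in vehicle of batch 1, and 68.7, 30.5 and 52.4 CPM in resistant 1, 94.8, 40.6 and 121 CPM in resistant 2 and 28.1, 12.9 and 16.3 CPM in vehicle of batch 2. The libraries labelled resistant lay below every vehicle library in batch 1 and above every one in batch 2. The log2 fold change was −1.78 ± 0.07 in batch 1 (called lower, edgeR adjusted p = 5.43e-19) and 1.40 ± 0.46 and 2.16 ± 0.46 in batch 2 (called higher, adjusted p = 0.0193 and 0.00208). The call for resistant 1 in batch 2 was lost without its replicate 1 (1.11), without replicate 2 or 3 of vehicle (1.19 and 1.30) and with no low-count filter (1.41). VHL, the recognition subunit of the ligase that removes HIF alpha, was at 0.05 in batch 1, not called (adjusted p = 0.399), and higher in batch 2 (0.74 and 0.81).

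The HIF targets moved in both directions. NDRG1, a stress-response protein induced by hypoxia, had 1.33, 1.50 and 1.35 CPM in the libraries labelled resistant 1 and 246, 249.7 and 267 CPM in vehicle of batch 1, and 2.38, 1.80 and 1.56 CPM in resistant 1, 1.20, 1.55 and 1.64 CPM in the libraries labelled resistant 2 and 239, 218 and 234 CPM in vehicle of batch 2. It had the largest fall of all members, with log2 fold changes of −7.43 ± 0.09, −6.89 ± 0.17 and −7.30 ± 0.18 (edgeR adjusted p = 1.58e-30, 1.27e-13 and 8.18e-14). P4HA2 (chr5:132190147-132295315), a catalytic subunit of collagen prolyl hydroxylase, had 42.1, 40.3 and 42.6 CPM in resistant 1 and 13.4, 11.9 and 12.5 CPM in vehicle of batch 1, and 40.6, 29.9 and 42.8 CPM in resistant 1, 43.1, 34.2 and 40.5 CPM in resistant 2 and 6.78, 7.24 and 5.31 CPM in vehicle of batch 2. The groups did not overlap and the log2 fold changes were 1.80 ± 0.08, 2.55 ± 0.17 and 2.60 ± 0.17 (edgeR adjusted p = 5.25e-18, 4.11e-09 and 3.18e-09). P4HA1, the companion subunit, was not called in batch 1 (0.08, adjusted p = 0.171) and higher in batch 2 (0.76 and 0.65). VEGFA, the vessel growth factor, had 105, 106 and 104 CPM in resistant 1 and 62.5, 59.9 and 60.4 CPM in vehicle of batch 1 and was higher in all 3 (0.86, 1.21 and 1.71). The mitophagy receptors went opposite ways: BNIP3, whose window held 6 cores, was higher (1.16, 0.93 and 0.99), and BNIP3L, known for clearing mitochondria from maturing red cells, was lower (−0.41, −0.32 and −0.63). BNIP3 has 44 pseudogenes named after it, with which reads could be shared. The BNIP3L call for resistant 1 in batch 2 was lost without replicate 1 or 3 of vehicle (−0.31 and −0.27), without replicate 2 or 3 of resistant 1 (−0.21 and −0.29) and with library totals (−0.14). KDM3A, a histone demethylase, was higher in all 3 (0.44, 0.46 and 0.57). ANKRD37, an ankyrin repeat protein, was called for resistant 1 in batch 2 alone (−0.74, lower), and was at 0.44 in batch 1 and −0.64 for resistant 2. That call was lost with library totals (−0.55), with the replicate number as a block (−0.75), in DESeq2 (−0.74) and without replicate 1 or 3 of vehicle, of resistant 1 or of resistant 2 (−0.78 to −0.54), and in batch 1 the gene was called higher without replicate 2 of vehicle (0.72). The batch 2 call was also lost with no low-count filter (−0.73) and with only the 2 compared groups in the fit (−0.73). CA9, the carbonic anhydrase often used as a hypoxia marker, had 6, 11 and 6 counts in resistant 1 and 1, 2 and 1 in vehicle of batch 1, and 0, 0 and 0 in resistant 1, 1, 0 and 4 in resistant 2 and 0, 0 and 0 in vehicle of batch 2. ADM, the peptide adrenomedullin, had 7, 9 and 3 counts in resistant 1 and 14, 10 and 7 in vehicle of batch 1, and 6, 4 and 1 in resistant 1, 11, 8 and 4 in resistant 2 and 0, 1 and 0 in vehicle of batch 2. Neither gene was above the low-count filter.

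**Figure D2:**
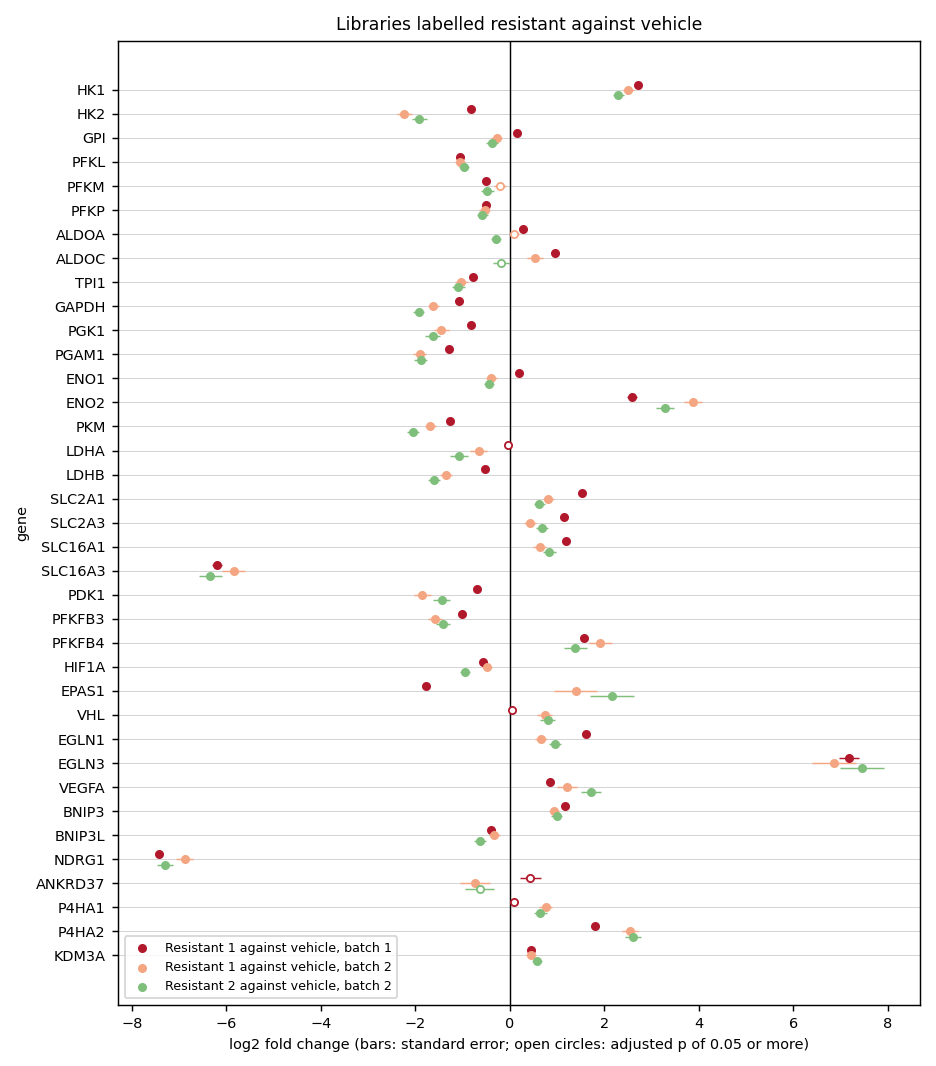
Log2 fold changes (± SE, 3 libraries a group) of the 37 tested members in resistant 1 of batch 1, resistant 1 of batch 2 and resistant 2 of batch 2, each against the vehicle of its batch, with open circles for adjusted p of 0.05 or more. EGLN3 lies near 7 and NDRG1 and SLC16A3 near −6 to −7 in all 3, and EPAS1 lies below 0 in batch 1 and above 0 in batch 2.

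Levels were compared between genes only per kilobase of transcript. On that scale the enzyme of highest level was GAPDH, at 1269 ± 60.8 CPM per kilobase in the libraries labelled resistant 1 and 2799.6 ± 101 in vehicle of batch 1 (mean ± SD, n = 3). ENO1 followed in resistant 1 at 867 ± 28.8, and LDHB in vehicle at 1029 ± 24.8. Shares within families show which isoenzyme a library used. HK1 made up 92.4% ± 0.148 of hexokinase transcripts per kilobase (HK1 and HK2) in resistant 1 and 51.2% ± 1.36 in vehicle of batch 1, and 95.6% ± 0.508 in resistant 1, 93.7% ± 1.42 in the libraries labelled resistant 2 and 44.6% ± 2.72 in vehicle of batch 2. K562 parental libraries gave 91.5% ± 0.0368 and OCI-AML3 parental libraries 48.8% ± 1.72. Per kilobase, vehicle cells thus carried both hexokinases at similar levels and the libraries labelled resistant mostly HK1. SLC16A1 made up 99.0% ± 0.397 of the lactate transporter pair in resistant 1 and 35.7% ± 1.38 in vehicle of batch 1, and 99.4% ± 0.101 in resistant 1, 99.6% ± 0.124 in resistant 2 and 64.4% ± 2.73 in vehicle of batch 2. The share of PFKFB4 in its pair was 65.4% ± 1.44 in resistant 1 and 24.2% ± 1.57 in vehicle of batch 1, and 54.4% ± 4.53 in resistant 1, 42.1% ± 0.647 in resistant 2 and 9.45% ± 3.65 in vehicle of batch 2. EGLN3 took 31.2% ± 1.88 of the EGLN1 and EGLN3 sum in resistant 1 and 0.946% ± 0.592 in vehicle of batch 1, and 12.8% ± 2.66 in resistant 1, 15.3% ± 3.46 in resistant 2 and 0.219% ± 0.186 in vehicle of batch 2. EPAS1 took 13.7% ± 0.206 of the alpha subunits in resistant 1 and 26.9% ± 0.839 in vehicle of batch 1, but 26.7% ± 6.56 in resistant 1, 44.8% ± 12.5 in resistant 2 and 9.21% ± 3.63 in vehicle of batch 2. BNIP3 took 65.6% ± 1.28 of the BNIP3 and BNIP3L sum in resistant 1 and 38.9% ± 1.86 in vehicle of batch 1, and 40.1% ± 3.12 in resistant 1, 46.0% ± 1.95 in resistant 2 and 21.7% ± 1.76 in vehicle of batch 2. Without division by length the leading gene changed in some groups. HK1 was then at 40.2% in vehicle and 88.6% in resistant 1 of batch 1, BNIP3 at 46.0% in resistant 1 of batch 1, and PFKFB4 at 48.3% in resistant 1 of batch 2. The shares are given as a description, with no test.

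**Figure D3:**
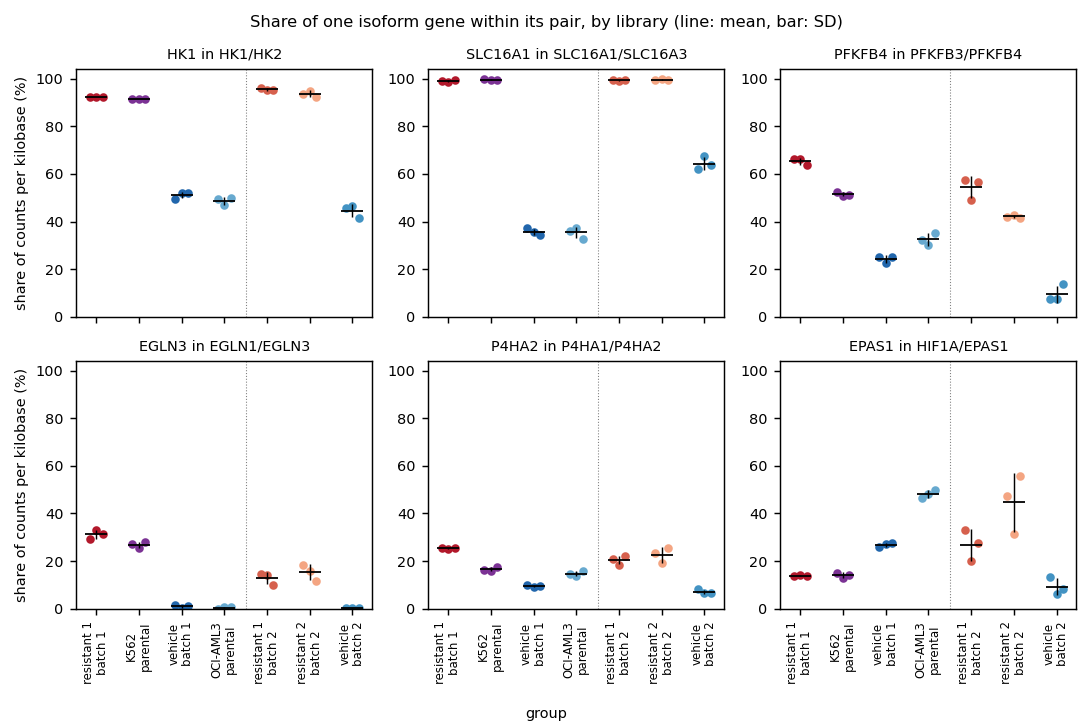
Share in percent of HK1, SLC16A1, PFKFB4, EGLN3, P4HA2 and EPAS1 within its gene pair, per kilobase of transcript, in each library (points) with the group mean (line) and SD (bar). HK1 and SLC16A1 lie above 90% in every library labelled resistant and in K562 parental.

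The difference between batches was tested for the libraries labelled resistant 1 against vehicle, the pair of groups present in both, as batch 2 minus batch 1 in 1 fit. Of 38 members tested, 7 had a higher and 17 a lower log2 fold change in batch 2 than in batch 1. These calls were 63.2% of the members, beside 33.2% of 15209 genes called (15% higher, 18.2% lower). With library totals, which shifted all genes by a median of 0.16, the split was 8 higher and 13 lower, and over all genes 3210 higher and 1686 lower in place of 2281 and 2773. EPAS1 had a difference of 3.16 ± 0.45 (edgeR adjusted p = 0.00041), and ADM, which was tested here alone and rested on the few counts given above, 3.53 ± 1.13 (adjusted p = 0.0223). The log2 fold change of ENO2 was also higher in batch 2, by 1.28 ± 0.21 (adjusted p = 0.000154). Among the lower ones were HK2 at −1.44 ± 0.13, PDK1 at −1.19 ± 0.15 and EGLN1 at −0.99 ± 0.12 (adjusted p = 6.23e-07, 1.39e-05 and 9.16e-06). Of the 10 members large with 1 sign in all 3 comparisons, HK1, SLC16A3, PFKFB4 and NDRG1 had differences between batches of −0.23, 0.35, 0.35 and 0.54, of which that of NDRG1 was called. The other 6 were all called: ENO2, P4HA2 (0.73), GAPDH (−0.57), PGAM1 (−0.63), PKM (−0.44) and PFKFB3 (−0.60), so 7 of the 10 differed in size between batches. That these 10 kept their sign was required by the rule that chose them. How many of all genes meeting that rule differed in this way was not counted. PFKFB4 became 0.73 and was called without replicate 3 of vehicle of batch 2. The ADM call was lost without replicate 1 of vehicle of batch 1, without replicate 1 or 3 of vehicle of batch 2 and without replicate 1 of resistant 1 of batch 2 (2.98 to 3.26). The NDRG1 call was lost without any 1 of the 3 resistant 1 or 3 vehicle libraries of batch 1, without replicate 2 or 3 of vehicle of batch 2 and without replicate 1 of resistant 1 of batch 2, which between them gave values of 0.32 to 0.58.

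Within batch 2, few members were called between resistant 2 and resistant 1 in the main fit, which did not pair libraries. Of 37 members, 0 were higher and 5 lower, beside 24.4% of 15218 genes called (12.4% higher, 11.9% lower), and the median log2 fold change was −0.06 beside 0 over all genes. None was called with an absolute log2 fold change of at least 1, beside 9.3% of all genes. The lower members were ALDOC (−0.72 ± 0.16), ENO2 (−0.59 ± 0.16), HIF1A (−0.47 ± 0.10), ALDOA (−0.38 ± 0.11) and PKM (−0.38 ± 0.12), with edgeR adjusted p of 0.00589, 0.0158, 0.00455, 0.0204 and 0.0358. ALDOC had 17.2, 26.7 and 20.1 CPM in the libraries labelled resistant 2 and 29.5, 40.4 and 35.9 CPM in the libraries labelled resistant 1, and HIF1A had 80.2, 68.7 and 73.7 CPM in resistant 2 and 107, 94.5 and 106 CPM in resistant 1. The libraries with the same number deviated together in this comparison, with correlations of deviations of 0.164 to 0.402. Replicate 3 of resistant 2, however, correlated more with replicate 1 of resistant 1 (0.342) than with its own number (0.164), so this pairing is uncertain. With the replicate number as a block 12 members were called, 4 higher and 8 lower. The share of all genes called was 29.9% in that fit and 24.4% without the block. HK2 (0.31), PDK1 (0.40), EPAS1 (0.72) and VEGFA (0.49) were then higher, and GAPDH (−0.31), LDHA (−0.42) and BNIP3L (−0.30) were among those lower. With library totals the split of members was 2 higher and 3 lower, and of all genes 2611 higher and 1398 lower in place of 1890 and 1816. Without replicate 2 of resistant 2, LDHA was −0.64 and called lower, against −0.41 with all libraries, not called. VEGFA (0.66), EGLN1 (0.43) and SLC16A1 (0.35) were then also called higher, and GAPDH (−0.39), LDHB (−0.38) and PFKFB4 (−0.71) lower. VEGFA was called higher as well without replicate 1 or 2 of vehicle (0.51 each) and with only the 2 compared groups in the fit (0.49). Calls for ALDOA were lost without replicate 1 or 3 of resistant 2 (−0.35 and −0.33) and without replicate 3 of resistant 1 (−0.40). Those for ENO2 were lost without replicate 1 or 3 of resistant 2 (−0.51 and −0.55) and without replicate 1 or 3 of resistant 1 (−0.53 and −0.54). PKM lost its call without replicate 1, 2 or 3 of resistant 2 (−0.39, −0.32 and −0.42), replicate 2 or 3 of resistant 1 (−0.25 and −0.43) or replicate 3 of vehicle (−0.38). The PKM call was also lost with library totals (−0.28) and with only the 2 compared groups in the fit (−0.39), and that for ALDOA with library totals (−0.29).

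In batch 2 the libraries numbered 2 stood apart at some members in all 3 groups. GPI, PFKP, ALDOA, PGK1, PGAM1, LDHA and PDK1 were at their highest in replicate 2 of the libraries labelled resistant 1, of the libraries labelled resistant 2 and of vehicle, and EPAS1, VEGFA and BNIP3L at their lowest. LDHA, for example, had 518, 802 and 599 CPM in resistant 1, 432, 617 and 391 CPM in resistant 2 and 915, 1134 and 986 CPM in vehicle. These 10 genes were picked out after their values were seen, and what set the libraries apart was not tested.

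The comparison of vehicle with OCI-AML3 parental, both labelled as the same line, shows these genes where the marker lists did not move as they did for the libraries labelled resistant. The erythroid markers summed to 29.6 to 31.9 CPM in vehicle and 19.9 to 23.2 CPM in parental, and the myeloid markers to 2021 to 2058 CPM in vehicle and 2225 to 2338 CPM in parental. Single markers did differ, beside 18.7% of all genes higher and 18.3% lower. Of 12 erythroid markers 3 were called higher and 0 lower, and of 11 tested myeloid markers 4 were higher and 2 lower. Of the 4 fibroblast and epithelial markers 0 were higher and 2 lower. Of 37 members, 19 were higher and 7 lower in vehicle, beside 37% of 14505 genes called (18.7% higher, 18.3% lower). The median log2 fold change was 0.16, beside 0 over all genes, and 3 members were called with an absolute value of at least 1, beside 4.67% of genes. VEGFA (chr6:43770184-43786487) had 62.5, 59.9 and 60.4 CPM in vehicle and 15.8, 17.8 and 15.8 CPM in parental, PDK1 had 78.5, 69.8 and 72.3 CPM in vehicle and 33.4, 32.0 and 29.0 CPM in parental, and EPAS1 had 52.0, 51.6 and 53.0 CPM in vehicle and 108, 119 and 109 CPM in parental. The groups did not overlap at any of these. The log2 fold changes were 1.86 ± 0.07 for VEGFA, 1.19 ± 0.07 for PDK1 and −1.13 ± 0.06 for EPAS1 (edgeR adjusted p = 1.05e-17, 1.67e-13 and 1.03e-14).

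The other members that were higher in vehicle by at least 0.5 on the log2 scale were ENO2 (0.99), PFKFB3 (0.91), ALDOC (0.85), SLC2A3 (0.68), EGLN1 (0.61), BNIP3L (0.60), P4HA1 (0.56) and PFKM (0.51). ENO2 had 5.87, 5.40 and 4.99 CPM in vehicle and 2.32, 2.35 and 3.41 CPM in parental, and PFKFB3 62.6, 62.5 and 63.9 CPM in vehicle and 32.2, 35.0 and 31.3 CPM in parental. The 7 lower calls lay in 3 of the 5 lists, beside 18.7% of all genes higher and 18.3% lower. By list, all 3 flux kinases were higher, and of the 8 tested genes listed as HIF targets 5 were higher and 0 lower. The enzymes had 6 higher and 2 lower, and the HIF factors and oxygen sensors 3 higher and 1 lower. The lactate and transport genes, which include the HIF target SLC16A3, had 2 higher and 4 lower. The abundant enzymes of the triose steps had values near 0: GAPDH −0.02, PGK1 0.03, PGAM1 −0.02 and TPI1 −0.08, none called. SLC2A1 was lower in vehicle (−0.48 ± 0.06, edgeR adjusted p = 1.23e-07). EGLN3 had 9 counts in all in vehicle and 2 in parental, 3.98 times as many per unit of depth (95% counting interval 0.824 to 37.9). Small calls depended on single libraries or on the method. In DESeq2 the call for ENO1 was lost (−0.10), and with its size factors in edgeR those for ENO1 (−0.10) and SLC16A3 (−0.16). With the replicate number as a block the call for SLC16A3 was lost (−0.17). The losses that follow came from leaving out libraries. ENO1 (−0.12) was lost without replicate 1 or 2 of vehicle, without replicate 1 or 3 of parental and without replicate 1 or 3 of the libraries labelled resistant 1 (−0.07 to −0.11). SLC16A3 (−0.17) was lost without replicate 1, 2 or 3 of vehicle, 1 or 3 of parental or 1 of resistant 1 (−0.19 to −0.12). SLC16A1 (−0.15) was lost without replicate 2 or 3 of vehicle or 1 or 2 of parental (−0.14 to −0.12). HK2 (0.16) was lost without replicate 3 of vehicle (0.15) or of parental (0.13), and ALDOA (−0.17) without replicate 1 of vehicle (−0.12).

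**Figure D4:**
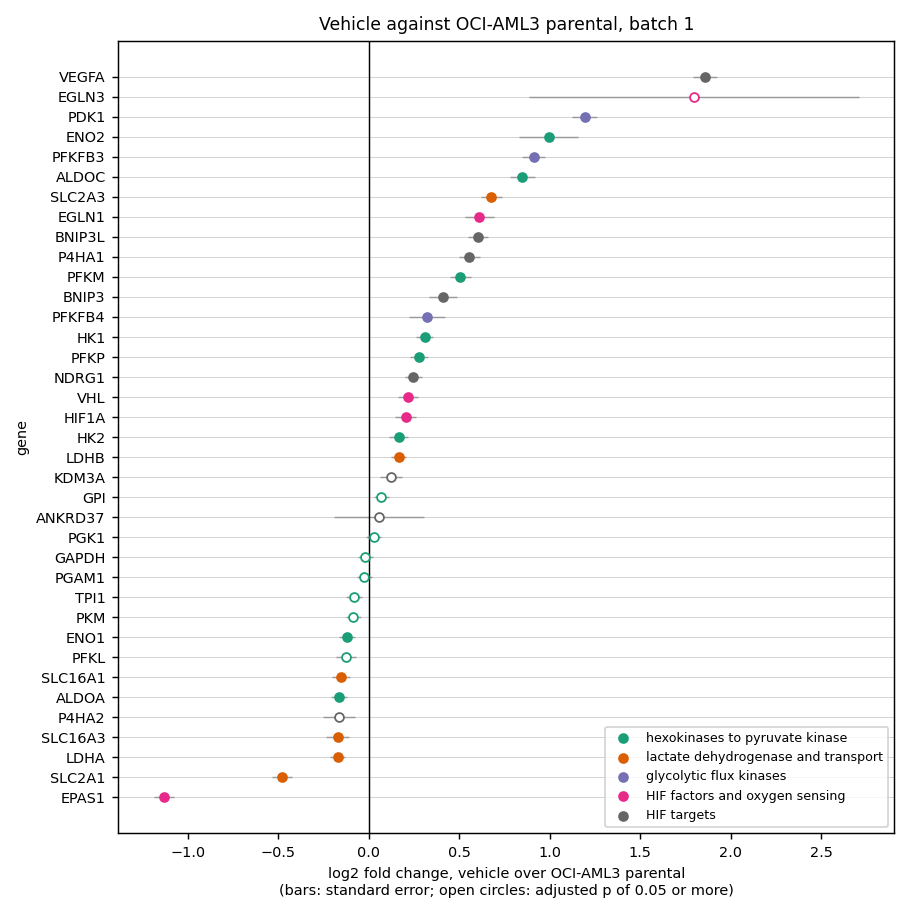
Log2 fold changes (± SE, 3 libraries a group) of the tested members in vehicle against OCI-AML3 parental of batch 1, coloured by role. VEGFA at 1.86 and PDK1 at 1.19 lie furthest above 0 among called members and EPAS1 at −1.13 furthest below, with the triose enzymes near 0.

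The parental lines show how these genes differ between K562 and OCI-AML3 cells with no treatment label. In K562 against OCI-AML3 parental, 16 members were higher and 14 lower, beside 85.1% of 13883 genes called (42.6% higher, 42.5% lower), with a median log2 fold change of 0.04 beside 0.00. HK1 had 991, 1044 and 1040.1 CPM in K562 and 117, 115 and 114 CPM in OCI-AML3, NDRG1 had 3.64, 2.79 and 3.43 CPM in K562 and 211, 216 and 203 CPM in OCI-AML3, and SLC16A3 had 0.618, 0.930 and 0.738 CPM in K562 and 191, 183 and 204 CPM in OCI-AML3. None of these groups overlapped. Their log2 fold changes were 3.15 ± 0.05, −5.99 ± 0.08 and −7.96 ± 0.11 (edgeR adjusted p = 1.09e-22, 2.66e-23 and 2.05e-23). EGLN3 had 847 counts in the K562 libraries and 2 in the OCI-AML3 libraries, 399 times as many per unit of depth (95% counting interval 110.0 to 3298). ENO2 (2.62), VEGFA (2.46), SLC2A3 (2.04), EGLN1 (1.97), SLC16A1 (1.28), BNIP3 (1.19), ALDOC (1.18) and SLC2A1 (1.13) were also higher in K562 by at least 1. EPAS1 (−3.12), PFKL (−1.29), PGAM1 (−1.25) and PKM (−1.12) were lower by at least 1.

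Between resistant 1 and K562 parental of batch 1 few genes were called with a large difference, both among the members and among all genes tested. Of 37 members, 16 were higher and 13 lower in the libraries labelled resistant 1, beside 59.8% of 13006 genes called (31.3% higher, 28.5% lower), and 3 were called with an absolute log2 fold change of at least 1, beside 9.6% of genes. SLC16A3 had 2.37, 2.90 and 1.28 CPM in resistant 1 and 0.618, 0.930 and 0.738 CPM in K562, P4HA2 had 42.1, 40.3 and 42.6 CPM in resistant 1 and 20.1, 19.3 and 21.9 CPM in K562, and NDRG1 had 1.33, 1.50 and 1.35 CPM in resistant 1 and 3.64, 2.79 and 3.43 CPM in K562. The log2 fold changes were 1.56 ± 0.31, 1.04 ± 0.07 and −1.21 ± 0.21 (edgeR adjusted p = 0.00016, 3.73e-11 and 3.01e-05). ENO2 (0.93), PFKFB4 (0.87), ALDOC (0.60), PDK1 (0.55), KDM3A (0.54) and EGLN3 (0.53) were higher in resistant 1 by at least 0.5, and ENO1 (−0.63) was lower. Of the 8 tested HIF targets 6 were higher and 1 was lower. HK1 was at −0.15, called lower. With library totals the split was 19 higher and 11 lower members, and 4798 higher and 2844 lower over all genes in place of 4069 and 3707. The small calls for PGAM1 (−0.10) and SLC2A1 (−0.11) were lost with the replicate number as a block (−0.10 and −0.11) and with library totals (−0.04 and −0.05). With no low-count filter that for PGAM1 was lost (−0.11). PGAM1 was also lost without any 1 of the 3 resistant 1 libraries or replicate 2 or 3 of K562 (−0.11 to −0.09), and SLC2A1 without replicate 1 or 3 of resistant 1 or replicate 3 of K562 (−0.12 to −0.07).

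**Figure D5:**
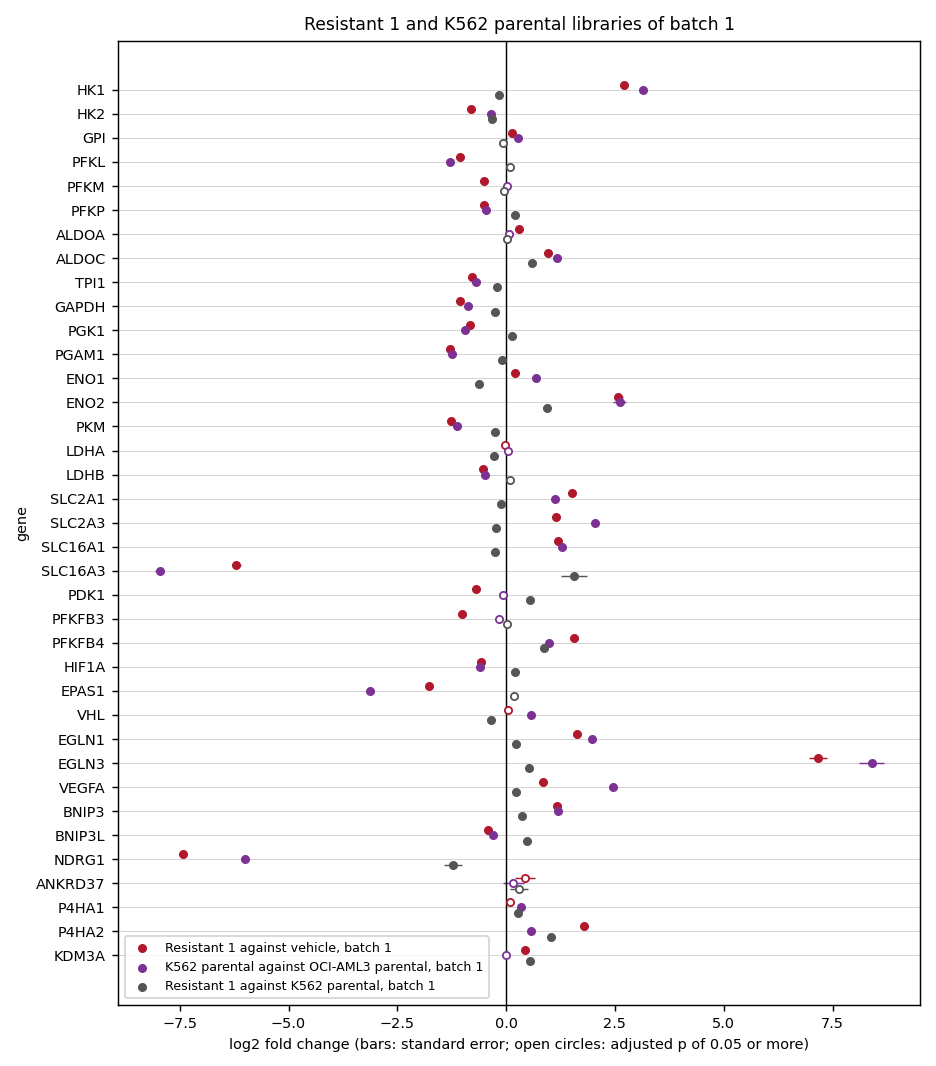
Log2 fold changes (± SE, 3 libraries a group) of the tested members in batch 1 for resistant 1 against vehicle, K562 parental against OCI-AML3 parental, and resistant 1 against K562 parental. The last lies between −1.21 and 1.56 for all members, while the first pair of comparisons runs from below −5 to above 7.

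Genes of the same pathways outside the 39 were listed for context. Among other glycolysis genes, 5 of 13 tested were higher and 7 lower in the libraries labelled resistant 1 against vehicle of batch 1. All genes gave 44% higher and 42.1% lower in this comparison, which is the background to the other lists below as well. PKLR, the pyruvate kinase of liver and red cells, had 206, 209 and 212 CPM in resistant 1 and 0.112, 0.0491 and 0.0683 CPM in vehicle (log2 fold change 11.37 ± 0.13, edgeR adjusted p = 6.79e-29), and PFKFB2, which sets the activator of phosphofructokinase in heart, was higher by 5.37. FBP1, the gluconeogenic bisphosphatase, had 0 counts in resistant 1 and 763 in vehicle, and so was at least 262-fold lower. PGM1, which feeds glycogen sugar into the pathway, had 3 counts in resistant 1 and 2006 in vehicle, a depth-scaled ratio of 689.7 in favour of vehicle (counting interval 236 to 3347). PKM and PKLR thus moved in opposite directions. Of other glucose and monocarboxylate transporters, 5 of 12 were higher and 7 lower. SLC16A7, a monocarboxylate importer, had 0 counts in resistant 1 and 1512 in vehicle, at least 519.8-fold lower. SLC2A5, a fructose transporter, had 1 count in resistant 1 and 3727 in vehicle, and SLC2A13, a myo-inositol transporter, was higher by 0.50. Of 12 genes of pyruvate entry into mitochondria, 7 were higher and 4 lower, with the pyruvate carrier subunits MPC1 (1.97) and MPC2 (1.79) higher and the phosphatase subunit PDP1 (−3.77) and the kinase PDK3 (−2.79) lower. Of 9 other HIF subunits and regulators, 1 was higher (CUL2, a scaffold of the VHL ligase, 0.36) and 7 were lower, among them CITED2 (−2.68), which competes with HIF for its coactivators, and HIF1AN (−1.02), which hydroxylates HIF alpha. Of 27 other HIF targets, 10 were higher and 15 lower. PLOD2, a collagen lysyl hydroxylase, had 968 counts in resistant 1 and 1 in vehicle, 939 times as many per unit of depth (95% counting interval 168 to 37107). TFRC, the transferrin receptor, was higher (3.34), and CXCR4, a chemokine receptor (−10.23), and P4HB, the partner of the P4HA subunits (−1.81), were lower.

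In batch 2, 5 of 15 other glycolysis genes were higher and 8 lower in the libraries labelled resistant 1 against vehicle, and 4 were higher and 8 lower in the libraries labelled resistant 2. Of 29 other HIF targets, 10 were higher and 12 lower in resistant 1, and 10 were higher and 13 lower in resistant 2. Of 9 other HIF subunits and regulators, 0 were higher and 6 lower in each. The background was 39.9% of all genes higher and 35.8% lower for resistant 1 and 40.2% higher and 35.9% lower for resistant 2. In vehicle against OCI-AML3 parental, 13 of 27 other HIF targets were higher and 5 lower, beside 18.7% of all genes higher and 18.3% lower. Picked out after their values were seen, STC2, a secreted glycoprotein, had 49.7, 53.1 and 54.7 CPM in vehicle and 0.715, 0.980 and 0.613 CPM in parental, and DDIT4, an inhibitor of mTOR signalling, had 96.2, 100.0 and 103 CPM in vehicle and 6.91, 6.40 and 9.60 CPM in parental. Their log2 fold changes were 6.05 ± 0.13 and 3.68 ± 0.10 (edgeR adjusted p = 1.29e-22 and 8.54e-19), larger than that of any of the 39 genes in this comparison. TFRC was lower in vehicle (−1.18, adjusted p = 4.38e-15).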

How the data were processed

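The authors deposited 2 tables of gene counts, 1 per batch, with whole counts per gene and no normalization, named STAR gene counts in the labels. The genome build was hg38 and DESeq2 1.22.1 was used, per the submitters' processing notes, and the library kit was strand-specific, per the labels' protocols, while the aligner's version and settings, the annotation and the strand setting of the counting were not given in the sources used here. All 21 columns matched a labelled library, and 0 columns had no sample. The members and all gene lists were chosen with earlier results of these data known.

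The counts were tested with edgeR 4.0.16 (R 4.3.3, limma 3.58.1): low-count filter (filterByExpr), trimmed-mean (TMM) scaling, robust quasi-likelihood fit on group means, Benjamini-Hochberg adjustment over all genes tested, calls at adjusted p under 0.05. The comparisons of vehicle in batch 1 were fitted with resistant 1, vehicle and OCI-AML3 parental libraries, those of K562 with the 6 libraries compared, those of batch 2 with its 3 groups, and the batch difference with the 12 resistant 1 and vehicle libraries of both batches. The code was tested on simulated data. Depth is given per library as total counts, and counting intervals (95%) cover counting error only. A gene with 0 counts in a group was set at a floor of 3 counts over the group. Alternatives were DESeq2 1.42.0, its size factors in edgeR, no low-count filter, the 2 compared groups alone, the replicate number as a block, and each library left out. Library totals without scaling factors were added after the data had been seen.

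Members were named with values when called with 1 sign in all 3 comparisons with vehicle at an absolute log2 fold change of at least 1 and 10 CPM on average in the higher group, when called with opposite signs there, when called at 0.5 or more in vehicle against parental or resistant 2 against resistant 1, or when partner of such a gene. The greatest 2 rises and 2 falls of each wider list were taken by the same CPM minimum. One of the wider lists is not reported here. Same-numbered libraries deviated together in resistant 1 and vehicle of batch 2 (correlations of deviations 0.224 to 0.271) and in resistant 2 and resistant 1 (0.164 to 0.402), and not throughout in the other pairs of groups. Replicate 3 of resistant 2 was closer to replicate 1 of resistant 1 (0.342) than to replicate 3 (0.164). The numbers may pair libraries in those comparisons, less clearly between resistant 2 and resistant 1, which rests on the data and not on the labels. The main fits did not pair libraries, and the replicate number as a block was an alternative.

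Promoter windows came from RefSeq (GRCh38.p14), positions and transcript lengths from GENCODE release 44 on the same build, in which 39 of 39 members matched. Pseudogenes are named after 18 members, 9 members are overlapped by another gene on the same strand and 12 on the opposite strand, so their reads could be shared. Figures were drawn with matplotlib 3.10.9 in Python 3.11.15.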

Additional observations from a re-analysis of the deposited data

Results flagged for a closer look

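The log2 fold change of resistant 1 against vehicle differed between batches, by the interaction test in edgeR, at 24 of 38 members (63.2%), beside 33.2% of all genes. Batch 2 minus batch 1 was positive for ADM (3.53), EPAS1 (3.16), ENO2 (1.28), P4HA2 (0.73), VHL (0.67), P4HA1 (0.66) and NDRG1 (0.54). ADM rested on 19 counts in resistant 1 of batch 1 and 11 in batch 2, against 1 in vehicle of batch 2. The difference was negative for HK2 (−1.44), ANKRD37 (−1.21), PDK1 (−1.19), EGLN1 (−0.99), LDHB (−0.84), SLC2A3 (−0.74), SLC2A1 (−0.72), LDHA (−0.65), PGK1 (−0.64), PGAM1 (−0.63), ENO1 (−0.61), PFKFB3 (−0.60), SLC16A1 (−0.58), GAPDH (−0.57), GPI (−0.44), PKM (−0.44) and ALDOC (−0.43). The call for ALDOC was lost without replicate 1 or 3 of vehicle or 2 of resistant 1 in batch 1 and without replicate 3 of vehicle or 1 of resistant 1 in batch 2 (−0.44 to −0.32). That for ANKRD37 was lost without replicate 1 or 3 of vehicle or 1 or 2 of resistant 1 in batch 1, and without replicate 1 of vehicle or 1 or 3 of resistant 1 in batch 2 (−1.21 to −1.02). Without scaling factors GPI (−0.28), PKM (−0.28), ALDOC (−0.28) and ANKRD37 (−1.05) were not called. The erythroid markers of resistant 1 summed to 1594 to 1729 CPM in batch 2 and 3772 to 3932 CPM in batch 1, and their part in these differences was not tested.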

How the results depend on the processing

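No value of a member reversed its sign past the threshold under any alternative that was run. Of 4234 values of the 38 members tested in any comparison under alternatives, 4068 kept their direction and side of the threshold, 122 lost a call and 44 gained one, and the cause was not tested. The number of members called stayed within 1.5 times the reported one in every comparison but resistant 2 against resistant 1. There, 5 became 12 with the replicate number as a block, and 2 to 11 when single libraries were left out: 2 without replicate 3 of resistant 1, 3 without replicate 1 or replicate 3 of resistant 2, and 11 without replicate 2 of resistant 2. The share of all genes called in that comparison was 24.4%, and 29.9% with the block. With the block, the members called were 33 and 34 for resistant 1 against vehicle in batch 1 and batch 2, 35 for resistant 2 against vehicle, 25 for vehicle against parental, 30 for K562 against OCI-AML3 parental, 27 for resistant 1 against K562 and 24 for the batch difference, while the share of all genes called was 85.5%, 77.9%, 78.5%, 35.6%, 85.7%, 54.5% and 33.8% in the same order. In batch 1 the libraries share only a number. Between resistant 2 and vehicle of batch 2 the same-numbered libraries correlated in their deviations at 0.0988, 0.218 and 0.158, each library best with its own number, but not all above 0.1, so that the pairing there is a hint from the data alone. Depth limits CA9 and ADM, which had few counts in every group. It also limits EGLN3 in vehicle and OCI-AML3 parental cells, where a handful of counts sets each value.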
